A study of Homo sapiens with 16 samples.

Results

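The matrix metalloproteinases (MMPs) and the ADAMTS proteases were followed in a ChIP-seq experiment on human fibroblasts. Members were chosen by gene symbol, MMP or ADAMTS followed by a number, in a table of read counts over windows of 2000 bp centred on annotated transcription start sites. The rule took 43 of 40113 genes, 24 MMP and 19 ADAMTS genes, with 229 of 237274 distinct windows. MMP genes had 115 of these windows and ADAMTS genes 114, and a member had between 1 and 23 windows with a median of 4. One member, MMP23A, is annotated as a transcribed pseudogene, and ADAMTS-like genes do not match the rule.

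The cells were BJ-5ta, an established line of fibroblasts immortalized with telomerase. Wild-type cells were compared with ΔLEO1, a single clone derived from the same line in which CRISPR/Cas9 guides were directed at the first exons of LEO1. The LEO1 protein belongs to the PAF1 complex, which travels with RNA polymerase II. Cells of either genotype proliferated in 10% serum or were made quiescent by 10 days in 0.1% serum. For each genotype and serum there were 2 libraries of ChIP (A and B) and 2 of input, which is chromatin sequenced without an antibody. The antibody is labelled H3, and its target according to the study's methods is H3K9me2, a dimethyl mark on a lysine of histone H3. ChIP replicate A of ΔLEO1 in 10% serum held 54 reads and was left out, so ΔLEO1 in 10% serum had 1 ChIP library and no spread of its own.

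The 7 remaining ChIP libraries held 1895572 to 3266061 reads over distinct windows, and the 8 inputs held 2844483 to 7947289. At the LEO1 windows the inputs gave 14.5 to 19.7 CPM (reads per 1000000 over distinct windows) in wild type and 10.5 to 15.2 in ΔLEO1 (log2 -0.37 ± 0.17, SE, edgeR adjusted p = 0.83), which does not check the genotype labels since the extent of the deleted stretch was not used here. The labels do not say whether A and B were separate cultures, so p-values measure only the spread between these libraries, which may be technical. The libraries came from cell populations, so fewer cells carrying the mark at a locus and less of the mark in each cell cannot be told apart. No expression was measured in these libraries, and fibroblast marker transcripts could not be checked.

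MMPs and ADAMTS proteases are zinc-dependent endopeptidases that cleave the extracellular matrix, and fibroblasts are among the main cells that make and remodel this matrix. Collagenases open the triple helix of fibrillar collagen, gelatinases cut denatured collagen, membrane-type MMPs act at the cell surface, and ADAMTS proteases trim procollagens, cleave proteoglycans such as aggrecan and versican, or process von Willebrand factor. Most are made as inactive precursors, and tissue inhibitors (TIMPs) block the active enzymes. H3K9me2 is placed mainly by the methyltransferases G9a and GLP and is found over silent genes and broad silent domains.

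ChIP over input was examined first, to see at which protease genes the antibody recovered more or less chromatin than the input held. The members spanned nearly the whole range of genes, from percentile 1.53 of all genes tested at ADAMTS1 to percentile 98.3 at ADAMTS19. Counts were summed per gene over distinct windows and tested in edgeR across all genes, with the mean of the ChIP groups set against the mean of the input groups. Of 40 members tested, 15 were higher in ChIP than in input, 12 were lower and 13 did not pass an adjusted p of 0.05 (edgeR, Benjamini-Hochberg). Among all 37362 genes tested, 40.9% were called higher and 36.0% lower, so neither share stood far from the background. The members' median log2 ChIP over input was -0.11, against 0.12 over all genes, and 18 of 40 members lay above that all-gene median. These directions are relative to the middle of all genes. With reads over peak regions as library sizes the all-gene median moved to -1.57 and all 40 members were called lower, as 97.4% of all genes were called in either direction, while the totals without TMM (trimmed mean of M-values) gave an all-gene median of 0.25.

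**Figure D1:**
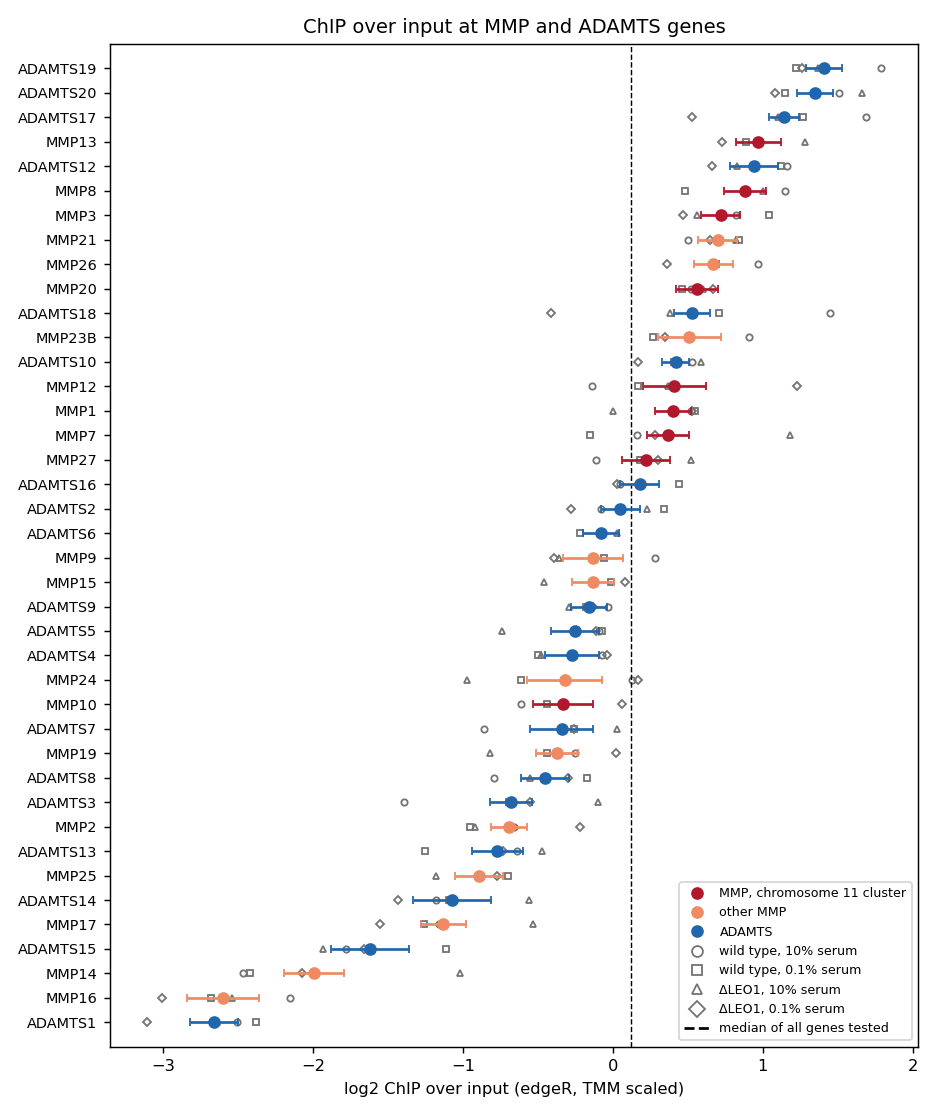
Log2 ChIP over input of the 40 members tested, with filled points for all groups together (error bars, SE) and open symbols for each genotype and serum, and a dashed line at the all-gene median of 0.12. The members run from -2.66 at ADAMTS1 to 1.41 at ADAMTS19, and 8 of 9 chromosome 11 cluster genes lie above the line. With peak-region totals as library sizes all members lie below 0.

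The 3 members with the largest ChIP over input were ADAMTS19, ADAMTS20 and ADAMTS17. ADAMTS19, a protease with no widely established substrate, has 4 windows on chromosome 5 between 129459281 and 129689100. Its summed signal was 50 and 52.3 CPM in the wild-type ChIP libraries in 10% serum and 40.5 and 28.0 in 0.1% serum. In ΔLEO1 it was 35.1 CPM in 10% serum and 25.1 and 26.6 in 0.1% serum. All 7 ChIP values lay above the 8 inputs, which ranged from 9.24 to 15.1 CPM with a median of 13.6, and the log2 ChIP over input was 1.41 ± 0.12 (SE, edgeR adjusted p = 5.74e-09). ADAMTS20, a versican-cleaving protease, gave 46.3 and 40.3 CPM in wild type in 10% serum, 32.5 and 38.3 in wild type in 0.1% serum, 45.2 in ΔLEO1 in 10% serum and 27.1 and 31.2 in ΔLEO1 in 0.1% serum. Its inputs ranged from 11.9 to 17 CPM, again below every ChIP library, and its log2 ratio was 1.35 ± 0.12 (SE, edgeR adjusted p = 8.17e-09). ADAMTS17, which is linked to connective tissue and eye development, had a log2 ratio of 1.14 ± 0.10 (SE, edgeR adjusted p = 5.83e-09), and its values per library are given with the genotype comparison. These 3 ratios were -0.35, -0.41 and -0.63 for ADAMTS19, ADAMTS20 and ADAMTS17 when peak-region totals served as library sizes.

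The 3 members with the smallest ChIP over input were ADAMTS1, MMP16 and MMP14. ADAMTS1, which cleaves versican and aggrecan, has 7 windows on chromosome 21 between 26839489 and 26846409. Its ChIP signal was 9.59 and 5.30 CPM in wild type in 10% serum, 8.05 and 7.5 in wild type in 0.1% serum, 6.61 in ΔLEO1 in 10% serum and 5.14 and 2.53 in ΔLEO1 in 0.1% serum. The inputs ranged from 34.5 to 49.9 CPM, far above all 7 ChIP libraries, and the log2 ratio was -2.66 ± 0.16 (SE, edgeR adjusted p = 1.11e-10). MMP16, a membrane-type MMP, gave 3.34, 5.30, 4.18 and 1.58 CPM in the 4 wild-type ChIP libraries (10% serum first) and 3.05, 3.71 and 0 CPM in the 3 ΔLEO1 ChIP libraries. Its inputs lay between 18.7 and 23.2 CPM, and the log2 ratio was -2.60 ± 0.24 (SE, edgeR adjusted p = 1.08e-08). MMP14, the membrane-type MMP that activates pro-MMP2 at the cell surface, had a log2 ratio of -1.99 ± 0.20 (SE, edgeR adjusted p = 4.67e-08). For ADAMTS1, MMP16 and MMP14 no ChIP library reached any input.

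By role, with directions relative to the middle of all genes as above and all lower under peak-region totals, all 3 collagenases were called higher. Their log2 ratios were 0.97 ± 0.15 for MMP13, 0.88 ± 0.14 for MMP8 and 0.40 ± 0.12 for MMP1 (SE). Of the membrane-type MMPs 0 of 6 were higher and 4 lower, with a median of -1.01. These counts stand beside 40.9% higher and 36.0% lower over all genes, and differences between roles were not tested. All collagenases lie in the chromosome 11 cluster and all membrane-type MMPs outside it, so role and locus cannot be told apart here. MMP17 (-1.13) and MMP25 (-0.89), which are anchored in the membrane through a lipid, were lower, and MMP15 (-0.13) and MMP24 (-0.32) did not pass. Both matrilysins, the small enzymes MMP7 (0.37) and MMP26 (0.67), were higher. Of the gelatinases, MMP2 was lower at -0.69 ± 0.12 (SE) and MMP9 did not pass at -0.13 ± 0.20. Among the stromelysins MMP3 (0.72) was higher and MMP10 (-0.33) did not pass. Of the other MMPs that could be tested, MMP20 (0.56, the enamel protease), MMP21 (0.70) and MMP23B (0.51) were higher, MMP19 (-0.37) was lower, and MMP12 (0.41, the macrophage elastase) and MMP27 (0.22) did not pass.

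The ADAMTS genes were spread as widely, on the same scale. Of 7 proteoglycanases, ADAMTS20 was higher and 3 were lower, which besides ADAMTS1 were ADAMTS15 (-1.62 ± 0.26, SE) and ADAMTS8 (-0.45 ± 0.16). The aggrecanases ADAMTS4 (-0.27) and ADAMTS5 (-0.25) and the versican-cleaving ADAMTS9 (-0.16) did not pass. The 3 procollagen N-proteinases remove the amino-terminal propeptide of fibrillar procollagens. Of these, ADAMTS3 (-0.68) and ADAMTS14 (-1.07) were lower and ADAMTS2 (0.05) did not pass. The ADAMTS2 sum joins a low window at its most upstream start (log2 ratio -2.09) with higher windows inside the gene (1.07). Of the proteases of cartilage oligomeric matrix protein, ADAMTS12 was higher at 0.94 ± 0.16 (SE). This value rests mostly on 1 window inside the gene (33623351 to 33625351, log2 ratio 1.26). The 4 overlapping windows at its main start held 0 reads in each ChIP library used. Input there was also too low for the comparison of windows within genes below, and the 4 windows of ADAMTS12 on alternate contigs held 0 reads. The 0 at the main start thus cannot be read as absence of the mark, and the call does not describe that start. ADAMTS7 did not pass at -0.34 ± 0.21. ADAMTS13, the protease of von Willebrand factor, was lower at -0.77 ± 0.17 (SE). Of the 6 other ADAMTS genes, ADAMTS10 (0.42), ADAMTS17, ADAMTS18 (0.53) and ADAMTS19 were higher, and ADAMTS6 (-0.08) and ADAMTS16 (0.18) did not pass. ADAMTS7 shares sequence with pseudogene copies, and its input ranged from 5.55 to 28.9 CPM, so its values are uncertain.

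Of the 43 members 3 could not be tested. MMP11 with 23 windows and MMP28 with 12 windows had 0 reads in every library, input included, and both also have windows on alternate contigs of the assembly with 0 reads. A count of 0 in input speaks of recovery by the counting and not of the chromatin. MMP23A held 7 ChIP reads and 32 input reads in all and is a near copy of MMP23B, so reads may be split between them. ADAMTS15 passed the filter on low counts in the fit with input and not in the fit of ChIP libraries alone, where 39 members were tested.

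Promoter sequences of 5 members are shown because they stand at the ends of these results. ADAMTS18 carried the largest genotype difference, MMP14 and ADAMTS20 are among the lowest and highest in ChIP over input, and MMP8 and MMP10 are the chromosome 11 cluster genes with a high and the lowest ratio. Each runs 5′ to 3′ over 300 bases, from 250 before to 50 after the RefSeq start in GRCh38.p14, in lower case with every CG dinucleotide in capitals.
ADAMTS18 (chr16:77434985-77435284, minus strand): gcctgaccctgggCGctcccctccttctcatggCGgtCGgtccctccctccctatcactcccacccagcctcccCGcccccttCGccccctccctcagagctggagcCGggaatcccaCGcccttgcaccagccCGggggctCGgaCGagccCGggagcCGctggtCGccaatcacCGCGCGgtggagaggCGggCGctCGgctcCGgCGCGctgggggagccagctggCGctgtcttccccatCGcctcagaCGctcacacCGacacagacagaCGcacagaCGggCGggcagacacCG
ADAMTS20 (chr12:43552154-43552453, minus strand): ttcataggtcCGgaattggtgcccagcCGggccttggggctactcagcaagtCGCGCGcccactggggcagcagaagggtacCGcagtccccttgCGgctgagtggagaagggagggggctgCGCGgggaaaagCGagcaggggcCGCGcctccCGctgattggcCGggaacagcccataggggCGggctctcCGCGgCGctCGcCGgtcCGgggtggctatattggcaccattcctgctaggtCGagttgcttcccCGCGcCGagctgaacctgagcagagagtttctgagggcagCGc
MMP14 (chr14:22836335-22836634, plus strand): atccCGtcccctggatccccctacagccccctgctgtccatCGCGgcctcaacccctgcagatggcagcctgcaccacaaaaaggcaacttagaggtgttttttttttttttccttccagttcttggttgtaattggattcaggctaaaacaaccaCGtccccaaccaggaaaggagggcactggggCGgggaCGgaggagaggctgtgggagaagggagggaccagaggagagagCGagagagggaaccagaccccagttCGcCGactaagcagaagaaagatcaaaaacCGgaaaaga
MMP8 (chr11:102724905-102725204, minus strand): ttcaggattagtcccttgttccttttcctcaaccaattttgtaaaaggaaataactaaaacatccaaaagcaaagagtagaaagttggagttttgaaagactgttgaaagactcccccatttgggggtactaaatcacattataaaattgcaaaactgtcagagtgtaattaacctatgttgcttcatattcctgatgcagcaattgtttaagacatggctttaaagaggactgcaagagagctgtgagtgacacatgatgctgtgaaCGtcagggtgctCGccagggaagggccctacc
MMP10 (chr11:102780579-102780878, minus strand): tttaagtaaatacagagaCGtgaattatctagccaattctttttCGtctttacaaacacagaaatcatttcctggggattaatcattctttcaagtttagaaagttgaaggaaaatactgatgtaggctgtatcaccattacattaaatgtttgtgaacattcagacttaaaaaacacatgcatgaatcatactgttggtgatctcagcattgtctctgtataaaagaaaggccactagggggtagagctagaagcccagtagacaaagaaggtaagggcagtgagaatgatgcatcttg

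ADAMTS18 held 30 CG dinucleotides in these bases, ADAMTS20 26, MMP14 10, and MMP8 and MMP10 2 each. MMP8 and MMP10 thus have equally few, with ratios of 0.88 and -0.33. A RefSeq promoter was found for 24 of 43 members (55.8%), so a check of CG content over the whole set is void, and among the 24 the median was 24.5 CG against 14 over all 35116 promoters in the table. The AP-1 letters TGAGTCA (or TGACTCA on the other strand) stood in 1 of the 24, MMP7, against 4.95% of all promoters. The letters TATAAA (or TTTATA) stood in 7 of the 24, among them MMP8 and MMP10, against 11.5% of all promoters. These are matches of letters in this window only.

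The MMP cluster on chromosome 11 was taken apart from the dispersed members. It holds 9 genes (MMP7, MMP20, MMP27, MMP8, MMP10, MMP1, MMP3, MMP12 and MMP13, in the order of their coordinates) with 22 windows between 102529747 and 102956732, a span of 427 kb. Summed over the 9 genes, ChIP gave 159 and 178 CPM in wild type in 10% serum, 165 and 175 in wild type in 0.1% serum, 186 in ΔLEO1 in 10% serum and 199 and 184 in ΔLEO1 in 0.1% serum. The 8 inputs gave 93.5 to 132 CPM, so every ChIP library lay above every input. The log2 ChIP over input of the sum was 0.62, against -0.03 for the sum of all other members, and it was 0.43 over non-overlapping windows and 0.75 without TMM. By group it was 0.65 ± 0.11 (SD, n = 2) in wild type in 10% serum, 0.51 ± 0.06 in wild type in 0.1% serum, 0.67 in the ΔLEO1 library in 10% serum and 0.64 ± 0.08 in ΔLEO1 in 0.1% serum. The SD over all 7 ChIP libraries was 0.11. No test was made for the sum, because the set was chosen with results of these data known.

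Of the 9 cluster genes 6 were called higher, 0 lower and 3 did not pass, with a median log2 ratio of 0.41, relative to the middle of all genes as above. The 12 tested MMP genes outside the cluster had a median of -0.35, with 3 higher and 6 lower. Over all genes 40.9% were higher and 36.0% lower, and the difference between the cluster and the other MMP genes was not tested. Within the cluster MMP8, the neutrophil collagenase, had the highest summed signal. It gave 44.2 and 52.7 CPM in wild type in 10% serum, 41.8 and 40.2 in wild type in 0.1% serum, 47.8 in ΔLEO1 in 10% serum and 48.2 and 57.8 in ΔLEO1 in 0.1% serum. Its inputs ranged from 15.3 to 32.0 CPM, below all ChIP libraries. MMP13, a collagenase of cartilage and bone, gave 14.6, 21.9, 18.3 and 22.1 CPM in the wild-type ChIP libraries (10% serum first), 28.5 in ΔLEO1 in 10% serum and 18.6 and 20.3 in ΔLEO1 in 0.1% serum. The lowest of these lay just above the highest input of 14.4 CPM.

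MMP3, which cleaves many matrix proteins and activates other MMPs, gave 20.8 to 31.2 CPM in the 7 ChIP libraries against 11.8 to 20.5 in the inputs, which did not overlap. MMP20 gave 19.2 to 32.5 CPM against 13.8 to 23.7, and these ranges overlapped. MMP1, the interstitial collagenase that fibroblasts secrete, gave 27.5, 31.1, 30.3 and 29.6 CPM in the wild-type ChIP libraries (10% serum first), 22.9 in ΔLEO1 in 10% serum and 33.4 and 27.4 in ΔLEO1 in 0.1% serum. Its inputs reached 23.8 CPM, so only the ΔLEO1 library in 10% serum fell into their range. MMP7 gave 11 to 20.3 CPM in ChIP and 8.64 to 13.1 in input. The 3 genes that did not pass had 1 window each and few reads, with 2.50 to 8.44 CPM in ChIP for MMP10, 2.12 to 8.86 for MMP12 and 3.89 to 7.62 for MMP27. MMP10 (stromelysin-2) was the one cluster gene with a ratio below 0, at -0.33 ± 0.20 (SE, edgeR adjusted p = 0.147), and its ChIP and input libraries overlapped.

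**Figure D2:**
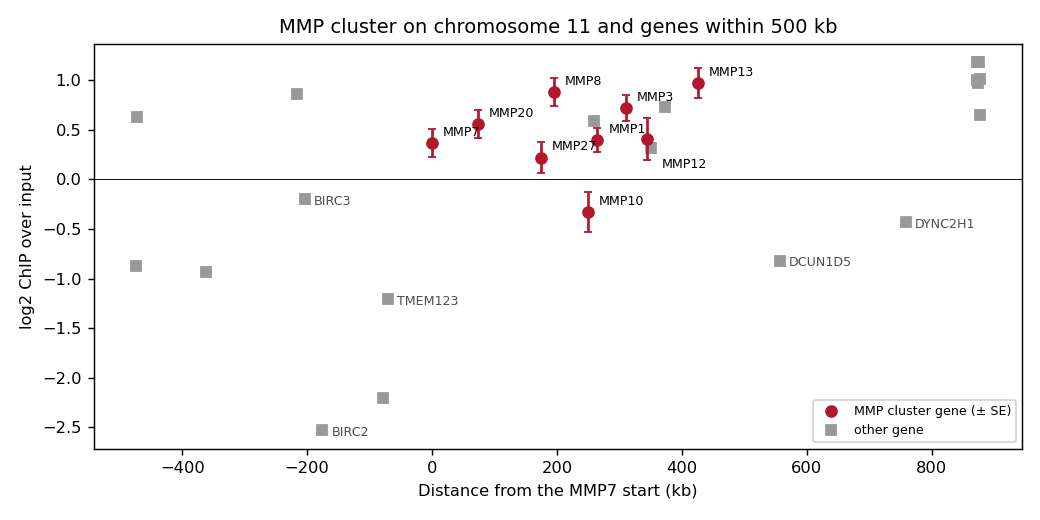
Log2 ChIP over input of the 9 MMP cluster genes (red, error bars are SE) and of 19 other genes within 500 kb (grey squares), by distance in kb from the MMP7 start on chromosome 11. The cluster genes lie between -0.33 and 0.97, and the other genes, some of them inside the cluster span, between -2.53 at BIRC2 and 1.18. With peak-region totals as library sizes all cluster genes lie below 0.

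The surroundings of the cluster were mixed. Of 19 other genes with a window within 500 kb, 10 were called higher and 7 lower, with a median log2 ratio of 0.59. WTAPP1 (0.59), BOLA3P1 (0.32) and RNU7-159P (0.73) among them lie inside the cluster span. The apoptosis inhibitor BIRC2 (-2.53), TMEM123 (-1.21) and the transcriptional coactivator YAP1 (-0.93) on one side and DCUN1D5 (-0.82) on the other were lower. The 10 genes called higher were pseudogenes and small RNA genes, among them 6 copies of mitochondrial genes. Summed ratios of adjacent members also differed elsewhere, which was not tested. ADAMTS1 (-2.66) and ADAMTS5 (-0.25) lie 118 kb apart on chromosome 21, and ADAMTS15 (-1.62) and ADAMTS8 (-0.45) lie 18.0 kb apart on chromosome 11. ADAMTS15 has 1 window, while ADAMTS8 stood at -2.07 at its upstream window and 0.27 inside the gene. The last pair was thus low at both starts.

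Windows within a gene were compared where a gene had a window at its most upstream annotated start and windows further inside that did not overlap it. The most upstream start need not be the main promoter. In 17 of 27 such members (63.0%) the internal windows had the higher log2 ChIP over input, close to the 65.4% of 14502 genes in the whole table. At ADAMTS10 the upstream window stood at -0.96 and the 9 internal windows at 0.78. ADAMTS2 (-2.09 upstream and 1.07 internal), ADAMTS6 (-2.02 and 0.27) and MMP15 (-1.37 and 0.70) split the same way. Their sums did not pass, which does not mean that their upstream windows were near input. In other members the upstream window was the higher, among them ADAMTS19 (1.75 upstream and 0.53 internal), ADAMTS20 (1.54 and 0.24) and MMP2 (0.98 and -1.20). For MMP2 the upstream value is that of the window starting at 55388700 alone, and all 7 other windows make up the lower value.

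In quiescent cells ΔLEO1 was set against wild type, both in 0.1% serum. Because ΔLEO1 is 1 clone, the loss of LEO1 and other differences of that clone cannot be told apart in any genotype comparison. The largest difference among the members was at ADAMTS18, a protease implicated in the development of the eye and of branching organs. It was a lower ChIP signal in ΔLEO1. Higher and lower in the genotype and serum comparisons are relative to the middle of all genes, since the fly chromatin added by the authors was not used. The paper, scaling to that chromatin, reports a genome-wide rise of H3K9me2 in quiescent ΔLEO1 cells. No absolute loss of the mark at a member is therefore shown here. In the fit across all genes 0 of 39 members passed an adjusted p of 0.05 (edgeR), as did 0.0% of all 35009 genes, and 3 members had an unadjusted p under 0.05, against 10.0% of all genes. DESeq2 called 1 member, ADAMTS18, and 41 genes in all (0.117%). When each gene was counted over non-overlapping windows only, so that no read was counted more than once, edgeR called 3 of 37 members, ADAMTS18 and ADAMTS17 lower and MMP14 higher. In that setting 0.453% of 33092 genes were called higher and 1.03% lower.

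**Figure D3:**
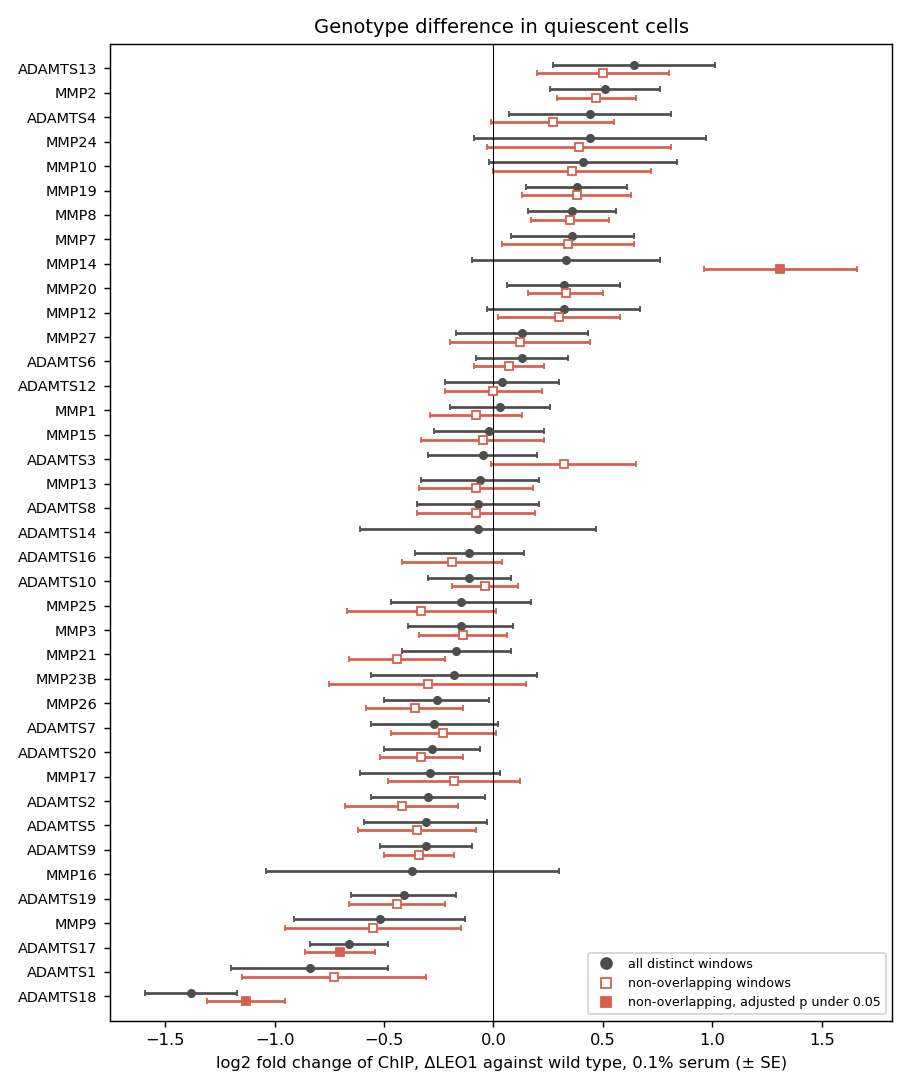
Log2 fold change of ChIP signal in ΔLEO1 against wild type in 0.1% serum for the 39 members tested, with SE, over all distinct windows (grey circles) and over non-overlapping windows (red squares, filled where the adjusted p is under 0.05). ADAMTS18 stands lowest at -1.38 and -1.13, and MMP14 differs most between the 2 countings at 0.33 and 1.31.

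ADAMTS18 has 8 windows on the minus strand of chromosome 16 between 77288359 and 77436034. In 0.1% serum its ChIP signal was 66.0 and 62.7 CPM in wild type and 27.4 and 20.7 in ΔLEO1. Both ΔLEO1 libraries lay far below both wild-type libraries, and the means were 64.3 ± 2.30 and 24.0 ± 4.76 CPM (SD, n = 2). The log2 fold change was -1.38 ± 0.21 (SE, edgeR adjusted p = 0.093). Over non-overlapping windows it was -1.13 ± 0.18 (SE, edgeR adjusted p = 1.72e-06), and it passed with each of the 4 libraries in 0.1% serum left out in turn, with adjusted p at most 0.00442. With DESeq2 over all windows it was -1.41 (adjusted p = 0.00527). It did not pass net of the change in input over non-overlapping windows (-0.97 ± 0.24, SE, edgeR adjusted p = 0.0777), nor with DESeq2 over non-overlapping windows (-1.16 ± 0.29, adjusted p = 0.41).

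In 10% serum the ADAMTS18 signal was 77.5 and 88.0 CPM in wild type and 49.3 in the ΔLEO1 library. The 8 inputs ranged from 28.8 to 48.5 CPM with a median of 33.1, and the genotype difference in input was 0.02 ± 0.16 (SE, log2). Thus wild-type ChIP lay above every input in both sera, and ΔLEO1 in 0.1% serum lay below every input. The log2 ChIP over input was 1.45 ± 0.23 in wild type in 10% serum, 0.71 ± 0.23 in wild type in 0.1% serum, 0.38 ± 0.30 in ΔLEO1 in 10% serum and -0.41 ± 0.24 in ΔLEO1 in 0.1% serum (SE). The first pair passed (edgeR adjusted p = 3.85e-05 and 0.0138) and the second did not (0.313 and 0.161).

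Among the ADAMTS18 windows the difference was largest at a window that holds the promoter printed above, but differences between windows were not tested. This window, from 77434034 to 77436034, had 31 and 18 reads in wild type and 8 and 4 in ΔLEO1 in 0.1% serum. Tested window by window, an alternative added after the data were seen, it gave a log2 fold change of -1.76 ± 0.35 (SE, edgeR adjusted p = 0.00197). The windows starting at 77433521 (-1.49, adjusted p = 0.0133) and at 77431448 (-1.67, adjusted p = 0.00509) also passed, and these 3 windows overlap or lie next to each other. The windows starting at 77430587, 77430633 and 77430746, also near the start, were not called. The first of them still gave 7.08 and 7.89 CPM in wild type and 3.71 and 1.69 in ΔLEO1 in 0.1% serum. The 2 windows more than 100 kb inside the gene did not pass either, with -0.90 and -0.64. Of 113 member windows tested one by one, 3 were called lower and 1 higher, against 0.294% and 0.0909% of all 140885 windows. The 8 other genes within 500 kb of ADAMTS18 had a median genotype difference of 0.04, with a range of -0.14 to 0.23. A peak region at the ADAMTS18 start, from 77434457 to 77435277, held 17 and 10 reads in wild type and 3 in each ΔLEO1 library in 0.1% serum, with a log2 fold change of -1.42 ± 0.56 (SE, edgeR adjusted p = 0.421).

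**Figure D4:**
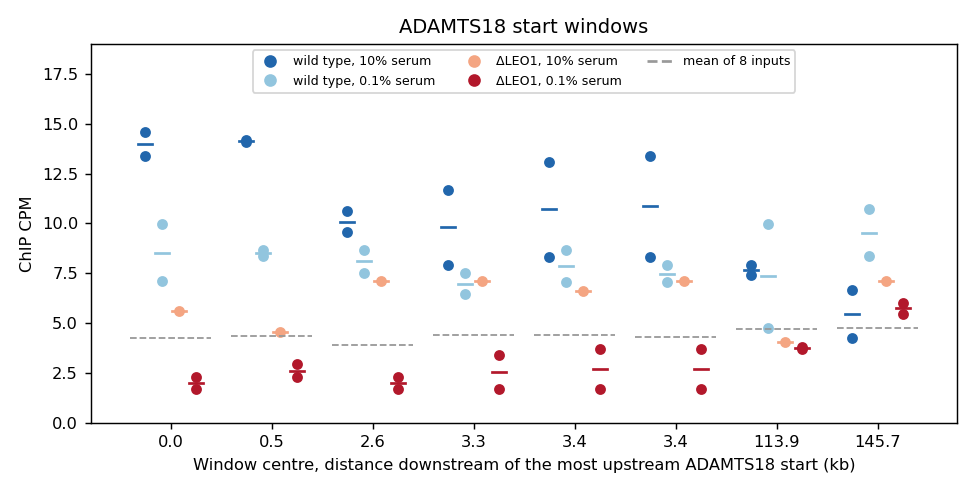
ChIP signal (CPM) at the 8 ADAMTS18 windows, ordered by the distance of the window centre from the most upstream start in kb, with points for libraries, short lines for group means and dashed lines for the mean of the 8 inputs. In the 6 windows within 4 kb of the start both ΔLEO1 libraries in 0.1% serum lie below the input mean, and all wild-type libraries lie above it.

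ADAMTS17 has 9 windows on chromosome 15 between 99975279 and 100343005. Its ChIP signal was 75.6 and 66.7 CPM in wild type and 43.1 and 46.4 in ΔLEO1 in 0.1% serum, and 111 and 104 CPM in wild type and 63.5 in ΔLEO1 in 10% serum. In both sera the ΔLEO1 libraries lay below the wild-type libraries of the same serum, and all 7 lay above the inputs of 27.6 to 34.8 CPM. The log2 fold change in 0.1% serum was -0.66 ± 0.18 (SE, edgeR adjusted p = 0.28), and over non-overlapping windows -0.70 ± 0.16 (SE, edgeR adjusted p = 0.00352). The second call was lost without ΔLEO1 replicate A (adjusted p = 0.144) or wild-type replicate A (0.0997), and net of input (0.0738). The 14 other genes within 500 kb had a median of -0.22, with a range of -0.86 to 0.43. Both ADAMTS17 and ADAMTS18 were among the members called higher in ChIP than in input. In 0.1% serum, peak regions held 366633 and 292945 ChIP reads in wild type and 337255 and 217472 in ΔLEO1. Totals over distinct windows were 2922938 and 2373574 in wild type and 3266061 and 2195071 in ΔLEO1. The share in peak regions was thus smaller in ΔLEO1, and in wild type it was smaller in 0.1% than in 10% serum. Whether this contributes to the genotype and serum differences reported here was not tested.

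MMP14, in contrast, depended on how its windows were counted. It has 6 windows on chromosome 14 between 22835560 and 22842621, 5 of which overlap at the main start. The sum over all 6 gave 2.57 and 11 CPM in wild type and 8.28 and 8.44 in ΔLEO1 in 0.1% serum, which overlapped, with a log2 fold change of 0.33 ± 0.43 (SE, edgeR adjusted p = 0.851). The difference lay in the window from 22840621 to 22842621, inside the gene, with 4 and 5 reads in wild type and 29 and 16 in ΔLEO1 (log2 1.84 ± 0.38, SE, edgeR adjusted p = 0.00256). In input the same window held 23 to 46 reads in the 4 libraries in 0.1% serum, so that the ΔLEO1 signal of 8.28 and 6.75 CPM reached the input level of 5.18 to 6.55 CPM and the wild-type signal of 1.29 and 1.97 CPM did not. At the main start, printed above, ChIP held 0 to 7 reads in any library. Over non-overlapping windows the log2 fold change was 1.31 ± 0.35 (SE, edgeR adjusted p = 0.0235), and it no longer passed without ΔLEO1 replicate A (adjusted p = 0.278), ΔLEO1 replicate B (0.062) or wild-type replicate A (0.506). The sum over all windows turned to -0.38 without wild-type replicate A and was 1.46 without wild-type replicate B.

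**Figure D5:**
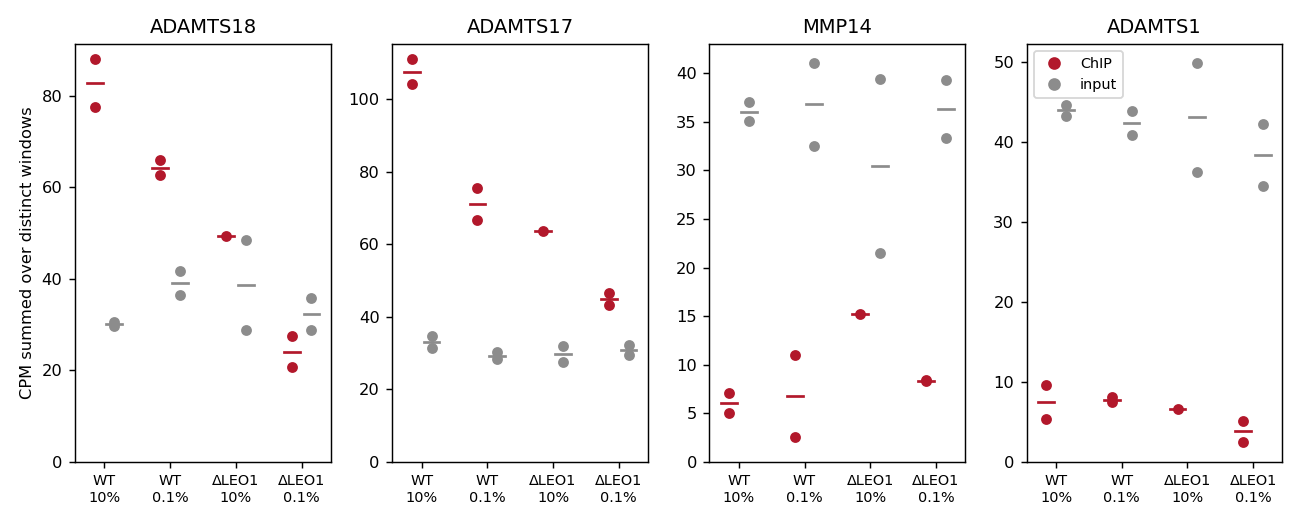
Summed CPM over the distinct windows of ADAMTS18, ADAMTS17, MMP14 and ADAMTS1 in each ChIP library (red) and input library (grey), by genotype and serum, with short lines at group means and axes from 0. ADAMTS18 is at 77.5 and 88.0 CPM in wild type in 10% serum and at 27.4 and 20.7 in ΔLEO1 in 0.1% serum, and ADAMTS1 stays below 10 CPM in ChIP in every group.

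Other members differed less. ADAMTS1 gave 8.05 and 7.5 CPM in wild type and 5.14 and 2.53 in ΔLEO1 in 0.1% serum, a log2 fold change of -0.84 ± 0.36 (SE, edgeR adjusted p = 0.471). On the other side ADAMTS13 gave 12.9 and 5.92 CPM in wild type and 15.4 and 15.2 in ΔLEO1 (log2 0.64 ± 0.37, SE, edgeR adjusted p = 0.603). MMP2, the gelatinase activated by MMP14, gave 21.2 and 24.5 CPM in wild type and 36.8 and 28.3 in ΔLEO1 (log2 0.51 ± 0.25, SE, edgeR adjusted p = 0.529). These 3 had groups that did not overlap and differences that did not pass. Single libraries moved them. ADAMTS1 was at -1.37 without ΔLEO1 replicate A and -0.54 without ΔLEO1 replicate B, ADAMTS13 at 1.27 without wild-type replicate A and 0.24 without wild-type replicate B, and MMP2 at 0.31 without ΔLEO1 replicate A. In all, the groups did not overlap for 5 members with higher values in ΔLEO1 (12.8%, against 20.4% of all genes) and 12 with lower values (30.8%, against 20.8%). The cluster genes had a median genotype difference of 0.32, with 7 of 9 above 0 and none called. Over all members the median was -0.07, against 0.00 over all genes, and with peak-region totals as library sizes it was 0.20 against an all-gene median of 0.30.

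In proliferating cells the same comparison rested on 1 ΔLEO1 library, whose spread is taken from the other groups. Again 0 of 39 members passed (edgeR), while 0.00571% of all genes were called, all of them lower. At an unadjusted p under 0.05 there were 4 members, against 9.11% of all genes, and DESeq2 called 0 members. ADAMTS17 had a log2 fold change of -0.75 ± 0.22 and ADAMTS18 of -0.74 ± 0.25 (SE, edgeR adjusted p = 0.342 and 0.424). ADAMTS3, a procollagen N-proteinase, gave 7.5 and 7.07 CPM in wild type and 14.2 in ΔLEO1 (log2 0.90 ± 0.32, SE, edgeR adjusted p = 0.449). MMP14 gave 5 and 7.07 CPM in wild type and 15.2 in ΔLEO1 (log2 1.22 ± 0.52, SE, edgeR adjusted p = 0.525). For MMP14 the overlapping windows at the main start count the same few reads more than once. Those starting from 22835560 to 22835620 held 2.03 CPM each in the ΔLEO1 library. The internal window gave 2.08 and 3.18 CPM in wild type and 3.56 in ΔLEO1. Over non-overlapping windows MMP14 gave 6.81 and 9.09 CPM in wild type and 12.9 in ΔLEO1. The groups did not overlap for 9 members with higher and 15 with lower values in ΔLEO1, or 23.1% and 38.5%, against 36.1% of all genes in each direction. These comparisons share no ChIP library with those in 0.1% serum.

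The effect of serum was examined within each genotype, with the same libraries as in the genotype comparisons. In wild type 0 of 39 members passed between 0.1% and 10% serum (edgeR), as did 0.0% of all genes, with 3 members against 9.06% of all genes at an unadjusted p under 0.05 and 0 members called by DESeq2. ADAMTS17 was at 75.6 and 66.7 CPM in 0.1% serum and 111 and 104 in 10% serum (log2 -0.54 ± 0.17, SE, edgeR adjusted p = 0.427). ADAMTS14 gave 3.22 and 2.37 CPM in 0.1% serum and 5.42 and 3.89 in 10% serum (log2 -0.54 ± 0.58, SE, adjusted p = 0.82, edgeR), and net of input its sign turned to 0.08. Without 10% serum replicate A it was -0.33. ADAMTS3 gave 10.6 and 11.4 CPM in 0.1% serum and 7.5 and 7.07 in 10% serum (log2 0.59 ± 0.26, SE, edgeR adjusted p = 0.543). ADAMTS7 gave 20.9 and 19.7 CPM in 0.1% serum and 10.8 and 19.1 in 10% serum (log2 0.46 ± 0.29, SE, edgeR adjusted p = 0.676), which was 0.14 without 10% serum replicate A and 0.91 without 10% serum replicate B. The groups did not overlap for 5 members with higher and 9 with lower values in 0.1% serum, or 12.8% and 23.1%, against 16.8% and 23.8% of all genes.

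In ΔLEO1, with 1 library in 10% serum, 0 of 39 members passed (edgeR), as did 0.0% of all genes. At an unadjusted p under 0.05 there were 2 members, against 10.1% of all genes, and DESeq2 called 0 members. ADAMTS18 had a log2 fold change of -0.95 ± 0.26 between 0.1% and 10% serum (SE, edgeR adjusted p = 0.322). MMP19, an MMP of broad tissue distribution, gave 44.2 and 32.9 CPM in 0.1% serum and 22.4 in 10% serum (log2 0.82 ± 0.31, SE, edgeR adjusted p = 0.424). ADAMTS14 gave 0.571 and 5.48 CPM against 6.61 (log2 -1.07 ± 0.71, SE, edgeR adjusted p = 0.642), which was -0.19 without ΔLEO1 0.1% serum replicate A and -2.46 without replicate B. MMP12 gave 8.85 and 8.86 CPM against 5.59 (log2 0.64 ± 0.50, SE, edgeR adjusted p = 0.695). The groups did not overlap for 13 members with higher and 19 with lower values, or 33.3% and 48.7%, against 33.5% and 41.0% of all genes.

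The difference between the genotype effects of both sera was tested as an interaction. It passed at 0 of 39 members and 0.0% of all genes (edgeR), with 1 member (ADAMTS3, -0.95 ± 0.40, SE) against 6.17% of all genes at an unadjusted p under 0.05, and DESeq2 called 0 members. For ADAMTS18 it was -0.64 ± 0.32 (SE, edgeR adjusted p = 0.839), so its genotype difference is not shown to depend on serum. In the inputs 0 of 40 members differed between the genotypes (edgeR), against 0.00268% of all genes, with 3 members, against 5.82% of all genes, at an unadjusted p under 0.05 and 0 called by DESeq2. ADAMTS7 had the smallest p there (-0.58 ± 0.24, SE, adjusted p = 0.82), and it was called only without ΔLEO1 10% serum input replicate B.

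The regulators of these proteases were counted from fixed lists. Of 6 inhibitors, A2M, a broad protease trap, was higher in ChIP than in input at 0.33, TIMP1 (-0.99), TIMP2 (-0.38), TIMP3 (-1.34) and RECK (-0.58) were lower, and TIMP4 (0.03) did not pass. Of 4 genes that encode activators, plasminogen (PLG, 0.88) was higher, its activator PLAT (-0.74) and the proprotein convertase FURIN (-0.89) were lower, and PLAU (-0.14) did not pass. Of 5 ADAMTS-like genes, whose products lack the protease domain, ADAMTSL1 (0.34) and ADAMTSL3 (1.28) were higher, and ADAMTSL2 (-2.0), ADAMTSL4 (-1.92) and ADAMTSL5 (-0.67) were lower. Together 4 of 15 were higher and 9 lower, against 40.9% and 36.0% of all genes and relative to their middle as above, and no test was made of the lists. None of the 14 that could be tested passed in any genotype or serum contrast (edgeR), with 0 to 3 at an unadjusted p under 0.05 in each, against 6.17% to 10.1% of all genes.

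Peak regions gave another readout of the same libraries. Of 16092 regions 43 were taken as regions at members, by nearest gene or by overlap with the span of a member's windows. Of these, 37 had 1 of 12 members as the nearest gene, 20 overlapped the span of a member and 4 overlapped a member window. The rest lay outside that span, which runs from a member's first to its last window, and some lay far away. A region outside the span can still lie inside the gene. For example, the region from 65187822 to 65188612, with ADAMTS6 as nearest gene, was annotated to an exon. ADAMTS6 had 8 as nearest gene, MMP16 7 and ADAMTS17 6. Their ChIP over input, as a ratio of mean CPM, had a median of 3.79, against 3.83 over all regions, and ranged from 2.48 to 6.34. The 7 regions with MMP16 as nearest gene lay outside it, upstream at distances of -129323 to -667459 bp from its start. By annotation 30.2% of the regions at members lay in LINE repeats (22% of all regions), 11.6% in LTR repeats (29.9%) and 25.6% in introns outside repeats (11.3%). None of the 43 passed for genotype in either serum or for serum in wild type (edgeR), against 0.0124% higher and 0.0497% lower of all regions for genotype in 0.1% serum, where 3 regions had an unadjusted p under 0.05, against 8.33% of all regions.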

How the data were processed

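ChIP and input DNA of BJ-5ta cells were analysed from the raw read counts deposited by the authors, whole numbers over windows of 2000 bp around transcription start sites and over merged peak regions. The submitters' processing notes name builds hg38 and dm6 and bcl2fastq 2.20.0.422, STAR 2.7.10a and HOMER without roles, and the methods name csaw. The handling of duplicate reads is not given in the sources used here. Fly chromatin was spiked in by the authors and was not used here, so a shift of the mark across all genes cannot be seen.

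Every column was assigned to a library by its label, with 0 columns unused. Counts were summed per gene symbol over distinct windows, which counts reads in overlapping windows more than once. Genes were kept by filterByExpr (minimum count 10), scaled by TMM and tested with edgeR 4.0.16 in R 4.3.3 (quasi-likelihood F-test, two-sided, prior count 2, 1 coefficient per group), with Benjamini-Hochberg adjustment over all genes and a threshold of 0.05. ChIP over input used 15 libraries, ChIP contrasts 7 and input contrasts 8. CPM are reads per 1000000 reads over distinct windows, with TMM. The SE was derived from the F statistic. DESeq2 1.42.0 was an alternative. Scripts were tested on simulated data. Depth limits precision at genes with few reads, and counts without molecular identifiers are not independent molecules.

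Members, gene lists and tests were chosen with earlier results of these data known. Values per library are given for the 3 highest and 3 lowest members called in ChIP over input and for the chromosome 11 cluster. For each genotype or serum contrast they are given for the members called and for the 2 largest rises and 2 largest falls. The rises and falls were taken among members whose groups do not overlap and whose higher group has at least 10 counts in each library. Counts were summed over distinct windows that can overlap, so fewer separate reads can stand behind the 10. ADAMTS17 in 0.1% serum and MMP14 are given in full because non-overlapping windows called them. The windows, peak regions and BIRC2, TMEM123, YAP1, DCUN1D5, ADAMTS10 and the other upstream and internal examples were named after their values were seen. Window-by-window tests, peak-region tests, and non-overlapping windows net of input, with DESeq2 or with a library left out were added after the data were seen. Promoters are from RefSeq, GRCh38.p14. Replicate letters were not taken as pairs.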

Additional observations from a re-analysis of the deposited data

How the results depend on the processing

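The numbers of members called kept within 1.5 times of the reported counts, with these exceptions. With peak-region totals as library sizes, 0 members were higher and 40 lower in ChIP over input, and ADAMTS17, ADAMTS20 and ADAMTS19 turned to -0.63, -0.41 and -0.35 by construction of the scaling, since peak regions are where ChIP reads collect. For genotype in 0.1% serum, against 0 members in the reported fit, non-overlapping windows called 3, DESeq2 1 and the tests window by window 2. Non-overlapping windows without 1 library called 1 to 3. Input called 1 member, ADAMTS7, without ΔLEO1 10% serum replicate B. The cluster's log2 ChIP over input was 0.62, and it was 0.75 without TMM and 0.43 with non-overlapping windows. ADAMTS14 turned to 0.08 for serum in wild type net of input, and MMP14 to -0.38 for genotype in 0.1% serum without wild-type replicate A. The causes of the last 2 were not tested.

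Leaving out each library in turn gave 14 to 16 members higher and 11 to 13 lower in ChIP over input, a cluster ratio of 0.58 to 0.66, 0 members in each ChIP contrast of genotype or serum and 0 to 1 in input. Over 22 alternatives ADAMTS18 ranged from -1.60 to -0.97 and was called in 6, and ADAMTS17 ranged from -0.94 to -0.36 and was called in 3. Over the whole table, non-overlapping windows raised the genes called from 0 to 491 for genotype in 0.1% serum, to 260 for serum in wild type and to 138 for serum in ΔLEO1.

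The letters A and B did not pair the libraries. Same-letter deviations of ChIP groups correlated at 0.00485 to 0.0214 across genes, and those of input groups at 0.0126 to 0.115. With the letter as a replicate block 15 members were higher and 12 lower in ChIP over input, and 0 were called in every other contrast. Genes such as MMP10, MMP12 and MMP24, with 1 window and few reads, allow no small difference to be detected at this depth.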
